A study of Mus musculus with 9 samples.

Results

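The BCL2 family genes described here are 10 genes that set the threshold for mitochondrial apoptosis, chosen by gene name (Bcl2, Bcl2l1, Bcl2l2, Mcl1, Bax, Bak1, Bid, Bcl2l11, Bbc3 and Pmaip1) from the 54532 genes with FPKM values. Their levels were compared among HT22 cells, an immortalized mouse hippocampal line of wild-type genotype, in 9 RNA-seq libraries. OGE cells (n = 3) had 2 h of oxygen-glucose deprivation (OGD) and then 24 h of reoxygenation with extracellular vesicles of mesenchymal stem cells made from human induced pluripotent stem cells (hiPS-MSC-EVs). OGP cells (n = 3) had the same 2 h of OGD and 24 h of reoxygenation with PBS. Control cells (n = 3) received neither OGD nor EVs. The labels and the RNA-seq methods tie no EV dose to the sequenced cells, although the study names doses for its cell assays. The labels name the standard medium after OGD, whereas the methods name media with or without serum, so whether OGE and OGP cells differed in serum is not known. All 3 groups share the single cell line, and the study speaks of biological replicates without saying whether the libraries of a group came from separate cultures. The p-values below measure only the spread between these libraries, which may be technical.

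Proteins of the BCL2 family meet at the outer mitochondrial membrane. Guardians hold the effectors BAX and BAK1 in check, and BH3-only proteins either block the guardians or activate the effectors directly. Active effectors open pores that release cytochrome c, which starts the caspase cascade, and neurons are known to die by this route after ischemia. The BCL2 family is also controlled by splicing, protein turnover and cleavage, none of which a gene-level mRNA value shows. In bulk RNA, fewer cells of a type and less RNA per cell cannot be told apart.

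FPKM is the number of fragments per kilobase of gene, scaled to library depth. It uses a single length for each gene whichever transcript is made, so levels set side by side between genes are approximate. The reads in genes that the values imply ranged between 15026700 and 17368049 in OGE, between 16259448 and 19476806 in OGP and between 17069241 and 18506865 in control libraries. Control replicate 1 stood apart, with a correlation of 0.969 and 0.974 with the other control libraries against 0.987 between those, and OGE replicate 3 lay apart from the other OGE libraries on the third principal component. Of 12 neuron markers, only Tubb3 and Map2 averaged 1 FPKM or more and 9 were under 0.1 FPKM, Dcx being at 0, whereas 4 of 5 mesenchymal or fibroblast markers (Col1a1, Acta2, Col3a1 and Pdgfrb) averaged 1 FPKM or more. The neuron markers summed to 14.2 to 18.04 FPKM in OGE, 13.1 to 13.9 FPKM in OGP and 8.38 to 10.95 FPKM in control libraries. Most of that sum was Tubb3, at 13.99 FPKM in OGE, 10.8 FPKM in OGP and 7.95 FPKM in control libraries on average, whereas Map2 averaged 1.34 FPKM in OGE, 2.13 FPKM in OGP and 1.32 FPKM in control libraries, the OGP libraries being the highest. The mesenchymal or fibroblast markers summed to 463 to 566 FPKM in OGE, 713 to 781 FPKM in OGP and 809 to 1148 FPKM in control libraries, but these markers did not move together. Col1a1 averaged 369 FPKM in OGE, 383 FPKM in OGP and 777 FPKM in control libraries. Acta2 averaged 89.7 FPKM in OGE, 276 FPKM in OGP and 145 FPKM in control libraries, and Col3a1 averaged 44.8 FPKM in OGE, 81.9 FPKM in OGP and 47.7 FPKM in control libraries, with every OGP library above all others for both genes. Pdgfrb overlapped between all groups. Of the other marker lists, astrocyte markers (5, Aqp4 at 0) summed to 2.75 to 3.28 FPKM in OGE, 4.11 to 5.68 FPKM in OGP and 9.32 to 11.1 FPKM in control libraries. Microglia markers (5, Itgam at 0) summed to 8.86 to 9.95 FPKM in OGE, 16.4 to 18.9 FPKM in OGP and 11.99 to 17.1 FPKM in control libraries, with Tmem119 the one over 1 FPKM. The 3 oligodendrocyte markers averaged under 1 FPKM and the 3 endothelial markers under 0.1 FPKM over the 9 libraries. The part of these marker and mitochondrial differences in the results below was not tested.

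Of the 10 genes, 9 passed the filter of a mean of 0.5 FPKM over the 9 libraries, and Pmaip1 did not. A gene passed the test where limma, fitted to log2(FPKM + 0.5) of all 13245 genes that passed the filter, gave a Benjamini-Hochberg adjusted p no higher than 0.05 and the groups differed by 1.5-fold or more. Bid rose and Bcl2l11 fell in OGP against control, Bcl2l11 rose in OGE against OGP, and Bak1 fell in OGE against control. No guardian passed in limma or limma-voom in any of the 3 comparisons, with 1 of 4 at an unadjusted p under 0.05 in each. Only 3.39% to 6.38% of all genes tested passed in each direction in limma, so this is no result about the guardians. In OGP against control, Bcl2l2 had a limma adjusted p of 0.0192 with the fold short of 1.5.

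Of the 9 tested genes, 1 rose and 1 fell in OGP against control, where 6.38% of all genes tested rose and 5.74% fell. At an adjusted p up to 0.05 with no fold limit, 1 was higher and 3 were lower, where 13.8% and 16.0% of all genes were. In OGE against OGP 1 rose and 0 fell, where 3.39% of all genes rose and 4.73% fell, and with no fold limit 1 was higher and 1 lower, where 10.6% and 10.2% were. In OGE against control 0 rose and 1 fell, where 5.14% rose and 6.33% fell, and with no fold limit 1 was higher and 1 lower, where 11.7% and 13.1% were. The counts at an unadjusted p under 0.05 were 4, 3 and 3 of 9 in the same order of comparisons. The share of all genes at that limit is not given here. With limma-voom on recovered reads 2, 1 and 1 of the 9 passed, where 1937, 1296 and 1839 of all 13245 genes did. None of these counts out of 9 is a result about the family as a group. The median log2 fold change of the 9 genes was 0.06 in OGP against control, -0.16 in OGE against OGP and -0.18 in OGE against control, beside 0.0063, 0.0039 and -0.0034 over all genes tested. These comparisons share libraries, so their values are not independent of each other.

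Both genes that passed in OGP against control encode BH3-only proteins, and the sequences before their start sites are shown because the genes moved in opposite directions. Each run holds the 250 bases before a RefSeq start on build GRCm38.p6, read 5′ to 3′ on the strand of the gene. Capitals mark matches to the GC box GGGCGG and, in Bcl2l11, to the FOXO motif TGTTTAC, which was found as its reverse complement. The window of Bcl2l11 is chr2:128125788-128126037 on the plus strand, and that of Bid is chr6:120916825-120917074 on the minus strand.
Bcl2l11: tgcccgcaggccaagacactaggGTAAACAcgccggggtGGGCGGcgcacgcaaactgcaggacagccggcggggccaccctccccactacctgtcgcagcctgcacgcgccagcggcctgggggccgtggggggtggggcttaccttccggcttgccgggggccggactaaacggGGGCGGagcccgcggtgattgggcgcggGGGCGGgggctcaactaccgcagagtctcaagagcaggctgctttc
Bid: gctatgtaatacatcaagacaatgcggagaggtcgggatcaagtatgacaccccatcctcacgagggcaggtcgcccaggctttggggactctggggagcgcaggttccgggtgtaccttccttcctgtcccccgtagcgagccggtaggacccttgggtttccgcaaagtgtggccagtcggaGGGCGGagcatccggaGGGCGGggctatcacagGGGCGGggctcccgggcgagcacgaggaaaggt
The RefSeq start of Bid lies inside the span of the gene in the deposited values, so the window overlaps the first bases of that span. Motifs were searched on both strands, and positions count the motif's first base back from the start. The Bcl2l11 window had a GC content of 72.0%, with the FOXO match at position -227 and GC boxes at -211, -74 and -46. The Bid window had a GC content of 63.6% and GC boxes at -66, -50 and -33, with no match to the FOXO motif, to the AP-1 motif TGANTCA or to the CRE motif TGACGTCA. Of all 32851 RefSeq windows of this length, 3.17% held the FOXO motif, 32.7% the GC box, 6.75% the AP-1 motif and 1.55% the CRE motif, and their median GC content was 52.4%. A match of letters is a description of the window, not a binding site. Bcl2l11 has another RefSeq start with 2 GC boxes and no FOXO match before it. Neither Bcl2l11 window matched the AP-1 or CRE motif. A window before Bbc3, a gene that did not pass, also held a FOXO match, at -167. Other motifs were searched too and are not described here.

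Mcl1 encodes a short-lived guardian that binds BAK1 and BH3-only proteins (ENSMUSG00000038612, mm10 chromosome 3, 95658788 to 95663176, plus strand). It had 83.8, 86.5 and 82.4 FPKM in OGE libraries, 75.2, 86.8 and 83.97 FPKM in OGP libraries, and 79.02, 78.4 and 76.1 FPKM in control libraries. The highest level of any of the 10 genes in every library was that of Mcl1. All 3 OGE libraries lay above the control libraries, by 1.08-fold in the means, and the other pairs of groups overlapped. The log2 fold change was 0.07 in OGP against control (95% confidence interval -0.10 to 0.24), 0.04 in OGE against OGP (-0.13 to 0.21) and 0.11 in OGE against control (-0.05 to 0.28). The limma adjusted p was 0.501, 0.729 and 0.307 in the same order.

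Bcl2 encodes the founding guardian of the family (ENSMUSG00000057329, chromosome 1, 106538178 to 106714274, minus strand). It had 12.6, 12.2 and 14.4 FPKM in OGE libraries, 15.9, 14.5 and 13.8 FPKM in OGP libraries, and 11.96, 15.95 and 17.2 FPKM in control libraries. The 3 groups overlapped, and control replicate 1 was the lowest of all 9 libraries. The log2 fold change was -0.02 in OGP against control (95% confidence interval -0.31 to 0.28), -0.17 in OGE against OGP (-0.47 to 0.13) and -0.18 in OGE against control (-0.48 to 0.11), with limma adjusted p of 0.942, 0.409 and 0.352.

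Bcl2l1 encodes BCL-xL, a guardian of mature neurons, and by splicing also a pro-apoptotic short form (ENSMUSG00000007659, chromosome 2, 152780668 to 152831728, minus strand). It had 4.76, 4.73 and 6.17 FPKM in OGE libraries, 7.203, 6.68 and 6.91 FPKM in OGP libraries, and 5.54, 6.84 and 7.64 FPKM in control libraries. Every OGE library was below every OGP library, while the control libraries overlapped both. The difference of OGE from OGP, -0.39 on the log2 scale (95% confidence interval -0.68 to -0.09), had an unadjusted p of 0.0152 and a limma adjusted p of 0.0649, and so did not pass. The forms are not separated in these values, since 8 protein-coding transcripts of Bcl2l1 are annotated in GENCODE M21 and each gene has 1 FPKM.

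Bcl2l2 encodes BCL-w, a guardian known from neurons and testis (ENSMUSG00000089682, chromosome 14, 54883377 to 54888234, plus strand). It had 5.31, 4.62 and 5.36 FPKM in OGE libraries, 4.75, 4.66 and 4.12 FPKM in OGP libraries, and 5.65, 5.69 and 6.59 FPKM in control libraries. Both groups that had OGD lay below the control libraries without overlap, and overlapped each other. The log2 fold change in OGP against control was -0.37 (SE 0.0964), with a limma adjusted p of 0.0192 but a fold short of 1.5. It was 0.16 (95% confidence interval -0.06 to 0.38) in OGE against OGP and -0.21 (-0.43 to 0.01) in OGE against control, with limma adjusted p of 0.28 and 0.148. The predicted gene Gm20521 covers nearly the same stretch on the same strand and is listed at 0, so reads of these genes cannot be told apart.

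Summed over the 4 guardians, the level was 108 ± 1.002 FPKM in OGE, 108 ± 4.84 FPKM in OGP and 106 ± 2.902 FPKM in control libraries (SD, n = 3 each). Mcl1 made up 78.3% ± 2.04 of that sum in OGE, 75.7% ± 2.38 in OGP and 73.8% ± 3.32 in control libraries (SD, n = 3 each). The means of the guardian total lay closer together than the SD within OGP, but those of OGE and control lay further apart than the SD within OGE. Since most of the sum was Mcl1, it says little about the other guardians.

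**Figure D1:**
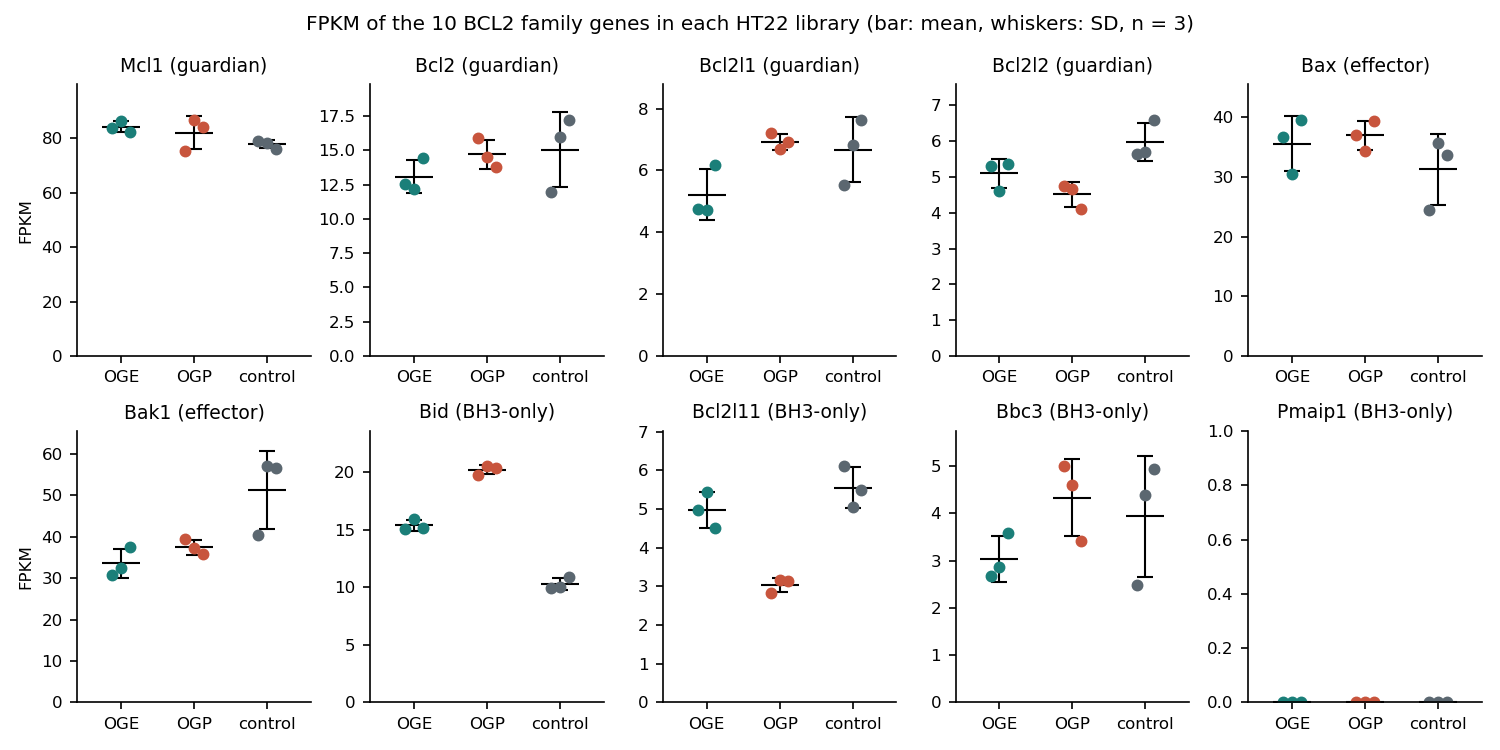
FPKM of the 10 genes in each HT22 library, with 1 panel per gene and its own vertical axis starting at 0; points are libraries of OGE, OGP and control cells, bars are means and whiskers are SD (n = 3). Bid separated the 3 groups, with OGP libraries at 19.8 to 20.5 FPKM, OGP libraries of Bcl2l11 lay below both other groups, and Pmaip1 was listed at 0 in all 9.

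Bax encodes an effector that moves from the cytosol to mitochondria when activated (ENSMUSG00000003873, chromosome 7, 45461697 to 45466898, minus strand). It had 36.7, 30.4 and 39.5 FPKM in OGE libraries, 37.02, 34.4 and 39.4 FPKM in OGP libraries, and 24.5, 35.7 and 33.6 FPKM in control libraries. The 3 groups overlapped, with control replicate 1 again the lowest of the 9. The log2 fold change was 0.25 in OGP against control (95% confidence interval -0.08 to 0.59), -0.06 in OGE against OGP (-0.39 to 0.28) and 0.19 in OGE against control (-0.14 to 0.53), with limma adjusted p of 0.231, 0.811 and 0.385. The stretch 45465984 to 45466898 of Bax is shared on the same strand with the predicted gene Gm45808, which is listed at 0.

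Bak1 encodes the effector that resides in the outer mitochondrial membrane (ENSMUSG00000057789, chromosome 17, 27019810 to 27029009, minus strand). It had 30.8, 32.5 and 37.6 FPKM in OGE libraries, 39.4, 37.2 and 35.8 FPKM in OGP libraries, and 40.5, 57.00 and 56.6 FPKM in control libraries. Every OGE and every OGP library was below every control library, OGP replicate 1 only just below control replicate 1. Bak1 fell in OGE against control, with a log2 fold change of -0.59 (SE 0.136, 95% confidence interval -0.90 to -0.28) and a limma adjusted p of 0.0124. In OGP against control it was -0.43 (-0.74 to -0.13), with a limma adjusted p of 0.0395 and a fold short of 1.5. OGE and OGP differed by -0.16 (-0.46 to 0.15, limma adjusted p = 0.452). The call in OGE against control rested near the threshold: without control replicate 2 or control replicate 3 the log2 fold change was -0.51, without OGE replicate 1 -0.53 and without OGE replicate 2 -0.57, and in each case Bak1 did not pass. It was lost in 9 of 21 settings in all, limma-voom (-0.57) among them. Without control replicate 1, Bak1 passed in OGP against control as well, at -0.59 (limma adjusted p = 0.00167). Ggnbp1, at 0.268 FPKM, spans the gene on the opposite strand.

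The ratio of Bax to Bcl2, often read as an index of sensitivity to apoptosis, was 2.92, 2.495 and 2.74 in OGE libraries, 2.33, 2.37 and 2.86 in OGP libraries, and 2.05, 2.24 and 1.96 in control libraries. All 6 libraries that had OGD lay above the control libraries, and OGE and OGP overlapped. The ratio averaged 2.72 ± 0.214 in OGE, 2.52 ± 0.293 in OGP and 2.08 ± 0.144 in control libraries (SD, n = 3 each). The ratio itself was not tested, and neither Bax nor Bcl2 passed on its own.

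Bid encodes the BH3-only protein that caspase-8 cleaves into its active form, linking death receptors to mitochondria (ENSMUSG00000004446, chromosome 6, 120891930 to 120916853, minus strand). It had 15.05, 15.95 and 15.2 FPKM in OGE libraries, 19.8, 20.5 and 20.4 FPKM in OGP libraries, and 9.95, 10.1 and 10.9 FPKM in control libraries. The 3 groups did not overlap, OGP being the highest and control the lowest, with OGE between them. Bid rose in OGP against control by 0.94 on the log2 scale (SE 0.0671, 95% confidence interval 0.79 to 1.09), a 1.96-fold difference of the means, with a limma adjusted p of 3.71e-05. In OGE against OGP the log2 fold change was -0.38 (-0.53 to -0.23), with a limma adjusted p of 0.00454. In OGE against control it was 0.56 (0.41 to 0.71), with a limma adjusted p of 0.000408. Both of these missed the fold of 1.5, the means being 0.762-fold and 1.49-fold. Bid passed in OGE against control without control replicate 3, at 0.60 on the log2 scale. The last stretch of Bid, 120891930 to 120892842, overlaps Bcl2l13 on the opposite strand. Bcl2l13 averaged 7.02 FPKM and had a log2 fold change of -0.25 in OGP against control. The library is not stated to keep strand, so reads in that stretch cannot be told apart. Elsewhere Bid overlaps the pseudogene Gm17812 on the opposite strand (0.721 FPKM) and Gm44260 on the same strand (0.294 FPKM).

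Bcl2l11 encodes BIM, a BH3-only protein that binds all guardians and is known to be induced when neurons lose trophic support (ENSMUSG00000027381, chromosome 2, 128126038 to 128162547, plus strand). It had 4.98, 5.44 and 4.503 FPKM in OGE libraries, 2.84, 3.17 and 3.13 FPKM in OGP libraries, and 6.099, 5.05 and 5.49 FPKM in control libraries. Every OGP library was below every OGE and every control library, whereas OGE and control overlapped. Bcl2l11 fell in OGP against control, by 0.77 on the log2 scale (SE 0.0985, 95% confidence interval -0.99 to -0.55, limma adjusted p = 0.000641). It rose in OGE against OGP, with a log2 fold change of 0.62 (0.40 to 0.85, limma adjusted p = 0.00256), or 1.63-fold in the means. Between OGE and control the log2 fold change was -0.14 (-0.37 to 0.08, limma adjusted p = 0.33). The call in OGE against OGP was lost on the fold without OGP replicate 1 (0.58) and without OGE replicate 2 (0.56). The values rest on 409 to 855 reads per library, and 5 protein-coding transcripts of Bcl2l11 are annotated in GENCODE M21.

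Bid and Bcl2l11 moved against each other between OGP and control cells. The ratio of Bid to Bcl2l11 was 3.02, 2.93 and 3.37 in OGE libraries, 6.97, 6.47 and 6.503 in OGP libraries, and 1.63, 1.99 and 1.99 in control libraries. The 3 groups did not overlap, and OGE lay between the other groups. Bid alone already separated the groups in that order, and Bcl2l11 passed in the opposite direction. The separation of the ratio follows from these genes and is no further result.

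**Figure D2:**
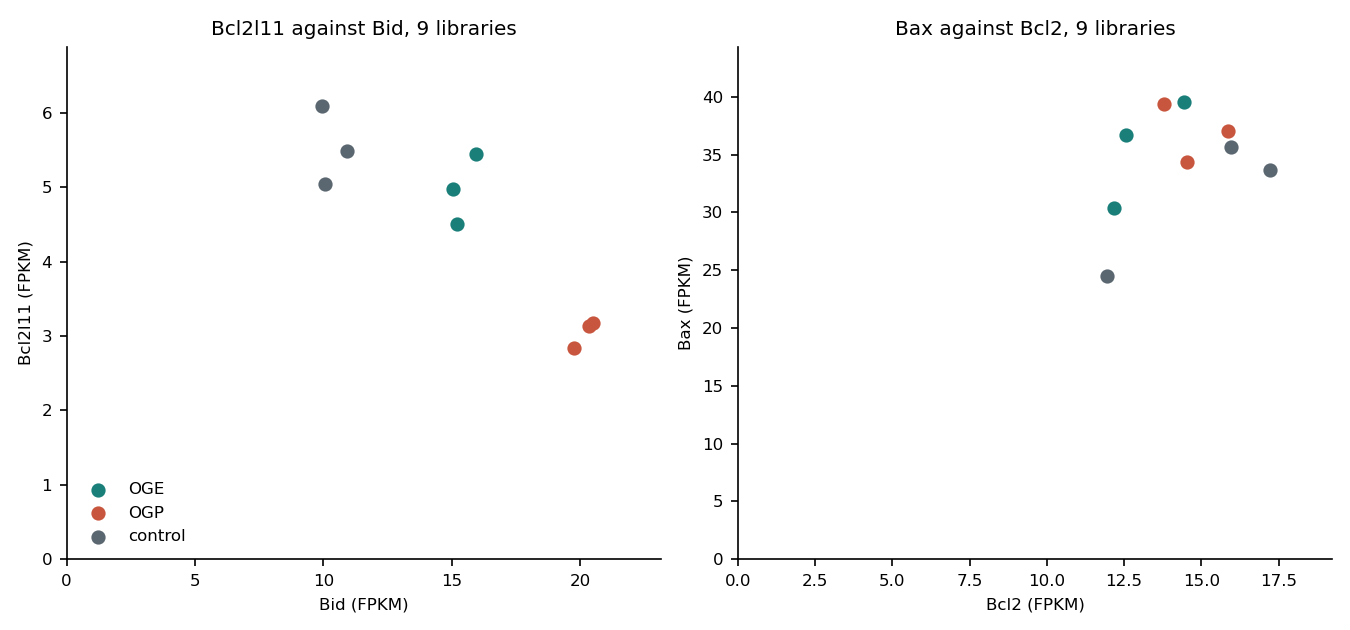
FPKM of Bcl2l11 against Bid (left) and of Bax against Bcl2 (right) in the 9 libraries, 1 point per library, with OGE, OGP and control cells in different colours and all axes starting at 0. On the left the 3 OGP libraries sit apart at 19.8 to 20.5 FPKM of Bid and 2.84 to 3.17 FPKM of Bcl2l11, whereas on the right the groups mix along both axes.

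Bbc3 encodes PUMA, a BH3-only protein known as a target of Trp53 (ENSMUSG00000002083, chromosome 7, 16308393 to 16318205, plus strand). It had 2.67, 2.86 and 3.58 FPKM in OGE libraries, 4.99, 4.598 and 3.41 FPKM in OGP libraries, and 2.48, 4.38 and 4.94 FPKM in control libraries. The 3 groups overlapped, and control replicate 1 was the lowest of the 9. The log2 fold change was 0.16 in OGP against control (95% confidence interval -0.35 to 0.66), -0.45 in OGE against OGP (-0.95 to 0.06) and -0.29 in OGE against control (-0.80 to 0.22), with limma adjusted p of 0.636, 0.197 and 0.391. These intervals are the widest of the 9 genes, and Bbc3 had the fewest reads, 92 to 210 per library.

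Pmaip1 encodes NOXA, a BH3-only protein that binds MCL1 (ENSMUSG00000024521, chromosome 18, 66458604 to 66465550, plus strand). It was listed at 0 FPKM in all 9 libraries and was not tested. Whether this value comes from the cells or from the counting could not be told: Endog, a mitochondrial nuclease, is also listed at 0 in all 9 libraries, and the span of Pmaip1 differs from that in GENCODE M21, unlike those of the other 9 genes.

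The 4 BH3-only genes summed to 23.4 ± 0.793 FPKM in OGE, 27.6 ± 0.69 FPKM in OGP and 19.8 ± 1.43 FPKM in control libraries (SD, n = 3 each). Bid held 65.8% ± 0.5205 of the sum in OGE, 73.3% ± 2.12 in OGP and 52.2% ± 1.36 in control libraries (SD, n = 3 each). The effectors summed to 69.2 ± 7.23 FPKM in OGE, 74.4 ± 2.49 FPKM in OGP and 82.6 ± 15.4 FPKM in control libraries (SD, n = 3 each).

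The order of the levels was much the same in the 3 groups. In OGE libraries Mcl1 was highest, followed by Bax and Bak1, which overlapped, then Bid, Bcl2, the overlapping Bcl2l1, Bcl2l2 and Bcl2l11, and Bbc3. In OGP libraries Bcl2l11 was the lowest of the 9 tested genes, below Bcl2l2 and Bbc3, whose ranges overlapped. In control libraries Bak1 was above Bax without overlap, and Bcl2 was above Bid, whereas Bid was above Bcl2 in OGE and OGP libraries.

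**Figure D3:**
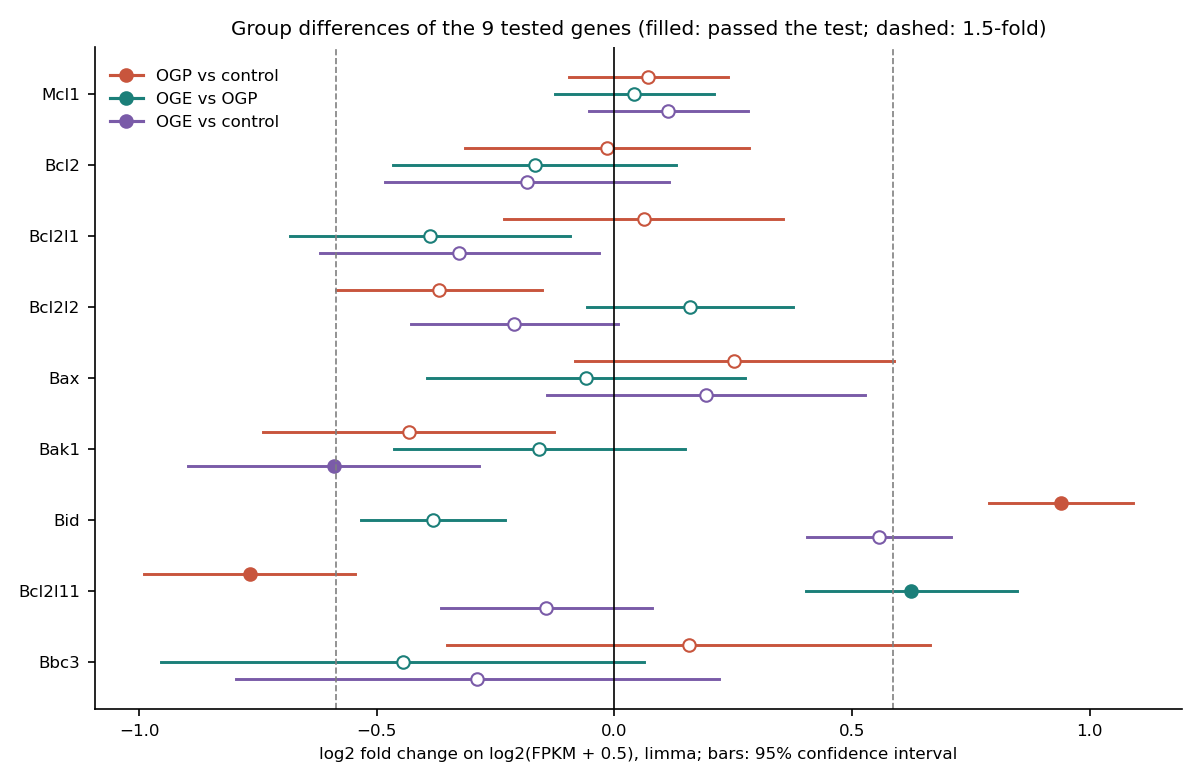
Log2 fold change on the log2(FPKM + 0.5) scale (horizontal axis) of the 9 tested genes in OGP against control, OGE against OGP and OGE against control, with bars for the 95% confidence interval, filled points for genes that passed the test and dashed lines at a fold of 1.5. Only Bid and Bcl2l11 in OGP against control, Bcl2l11 in OGE against OGP and Bak1 in OGE against control are filled, and Bak1 sits on the line at -0.59.

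**Figure D4:**
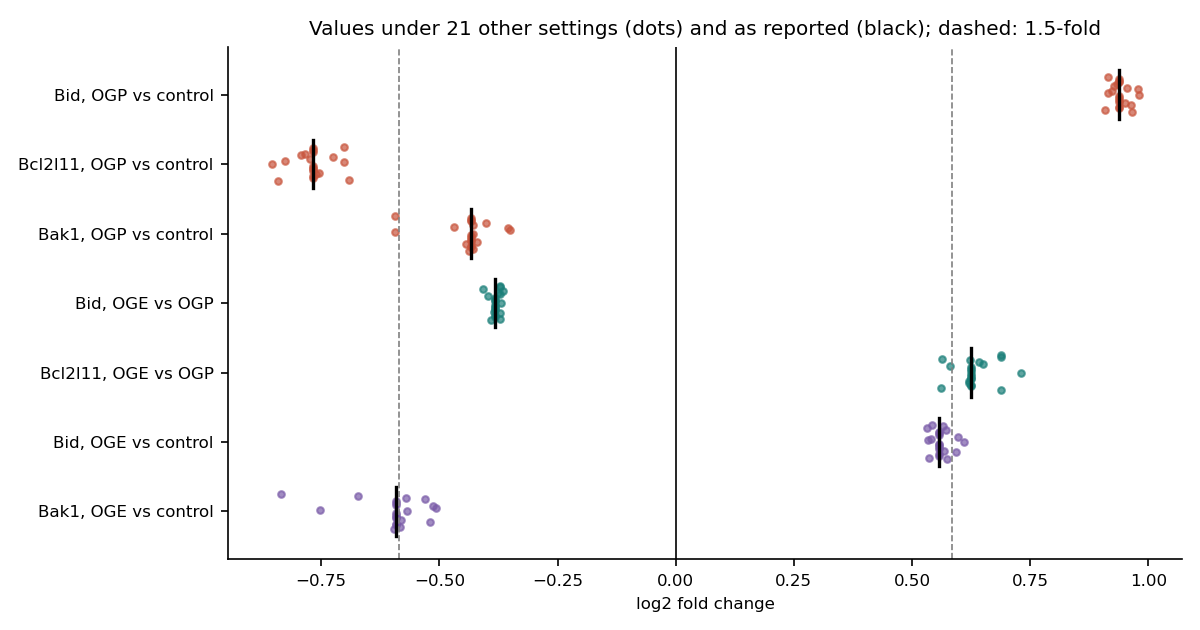
Log2 fold change (horizontal axis) of Bid, Bcl2l11 and Bak1 as reported (black) and under each of 21 other settings of the processing (dots), including the removal of single libraries, with dashed lines at a fold of 1.5. The dots of Bid in OGP against control span 0.91 to 0.98 and stay past the line, whereas those of Bak1 in OGE against control span -0.83 to -0.51 and fall on both sides of it.

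For each gene that passed, the genes whose log2(FPKM + 0.5) was most correlated with it over the 9 libraries were listed as a description, with group differences and library quality shared by all points. Bak1 was most like Ddr1 (Pearson r = 0.9895) and Elmod3 (r = 0.988). Ddr1, a collagen receptor, had 17.3 ± 2.01 FPKM in OGE, 19.2 ± 2.05 FPKM in OGP and 27.5 ± 6.56 FPKM in control libraries (SD, n = 3 each). Bid was most like Arl4c (r = 0.995) and Knstrn (r = 0.994). Arl4c, a small GTPase, had 33.4 ± 0.685 FPKM in OGE, 43.9 ± 1.603 FPKM in OGP and 22.1 ± 0.965 FPKM in control libraries (SD, n = 3 each). Bcl2l11 was most like Slc16a9 (r = 0.992) and Osmr (r = 0.991). Osmr, the oncostatin M receptor, had 16.8 ± 1.596 FPKM in OGE, 6.47 ± 0.3103 FPKM in OGP and 19.4 ± 4.803 FPKM in control libraries (SD, n = 3 each).

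Among 16 further relatives of the BCL2 family, 4 were listed at 0 throughout and 8 were tested. Counts in this and the lists below are to be read beside the shares of all genes given above. No such share is given for the unadjusted p, and no list was tested as a set. Bnip3, a mitophagy receptor known as a target of hypoxia, fell in OGP against control and the other 7 did not pass. It had 45.7 ± 5.77 FPKM in OGE, 30.6 ± 3.92 FPKM in OGP and 55.6 ± 8.27 FPKM in control libraries (SD, n = 3 each). Its log2 fold change was -0.85 in OGP against control (limma adjusted p = 0.00251) and 0.57 in OGE against OGP (limma adjusted p = 0.0215, with the fold short of 1.5). Bnip3 passed in OGE against OGP as well without OGE replicate 3 (0.67), OGP replicate 2 (0.62) or OGP replicate 3 (0.63). None of the relatives passed in OGE against OGP or OGE against control, with 1 at an unadjusted p under 0.05 in each, while limma-voom called Bnip3 higher in OGE against OGP. Their median log2 fold change was -0.22 in OGP against control, 0.09 in OGE against OGP and -0.18 in OGE against control.

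Downstream of the pore, none of 9 tested apoptosome and executioner genes passed in limma or limma-voom in any of the 3 comparisons, and 1, 3 and 3 had an unadjusted p under 0.05 in OGP against control, OGE against OGP and OGE against control. Casp6, an executioner caspase, averaged 9.52 FPKM in OGE, 7.11 FPKM in OGP and 10.5 FPKM in control libraries, and its log2 fold change was -0.53 in OGP against control (limma adjusted p = 0.00255) with the fold short of 1.5. The list's medians were -0.11, -0.06 and -0.13 on the log2 scale in the same order of comparisons.

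Upstream of Bid, 1 of 9 genes of the death receptor arm passed. Tnfrsf1a, the main receptor of tumor necrosis factor, had 49.4 ± 2.05 FPKM in OGE, 39.7 ± 2.65 FPKM in OGP and 65.8 ± 6.502 FPKM in control libraries (SD, n = 3 each). It fell in OGP against control, with a log2 fold change of -0.72 (limma adjusted p = 0.000584). Its log2 fold change was 0.32 in OGE against OGP and -0.41 in OGE against control, with limma adjusted p of 0.0381 and 0.0109 and folds short of 1.5. In those comparisons none of the 9 passed in limma or limma-voom, with 2 and 4 at an unadjusted p under 0.05. The medians were 0.14, 0.12 and 0.06 in OGP against control, OGE against OGP and OGE against control.

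Of 6 tested inhibitors of apoptosis, 2 rose in OGP against control and 1 fell in OGE against OGP, where 6.38% and 4.73% of all genes did. Birc3, a ubiquitin ligase of NF-kB signalling, had 0.956 ± 0.148 FPKM in OGE, 1.73 ± 0.128 FPKM in OGP and 0.912 ± 0.281 FPKM in control libraries (SD, n = 3 each). It rose in OGP against control by 0.68 on the log2 scale (limma adjusted p = 0.0127) and fell in OGE against OGP by 0.62 (limma adjusted p = 0.0254). The first call of Birc3 was lost without control replicate 2 (0.58) and without OGP replicate 2 (0.63), and its second call, lost in 7 of 21 settings, did not hold without any 1 of the OGE libraries, OGP replicate 2 or OGP replicate 3 (-0.68 to -0.53). Naip2, an inflammasome sensor that belongs to a family of near-identical copies among which reads may be split, had 1.99 ± 0.1897 FPKM in OGE, 2.54 ± 0.195 FPKM in OGP and 1.54 ± 0.5205 FPKM in control libraries (SD, n = 3 each). It rose by 0.61 in OGP against control (limma adjusted p = 0.032), a call of Naip2 that was lost in 10 of 21 settings, among them the removal of control replicate 2 (0.39), control replicate 3 (0.68) or any 1 of the OGP libraries (0.58 to 0.67). None passed in OGE against control in limma or limma-voom, and 0 had an unadjusted p under 0.05. The medians were 0.33, -0.22 and -0.0049 in OGP against control, OGE against OGP and OGE against control.

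None of 9 tested outer mitochondrial membrane partners passed in limma or limma-voom, with 2, 2 and 3 at an unadjusted p under 0.05 in OGP against control, OGE against OGP and OGE against control, and medians of -0.13, -0.03 and -0.07. Vdac1, a channel of that membrane, averaged 88.4 FPKM in OGE, 92.2 FPKM in OGP and 109.9 FPKM in control libraries, with a log2 fold change of -0.31 in OGE against control (limma adjusted p = 0.00964). Mfn2, which fuses mitochondria, averaged 13.6 FPKM in OGE, 12.6 FPKM in OGP and 16.4 FPKM in control libraries, with a log2 fold change of -0.37 in OGP against control (limma adjusted p = 0.00858).

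Of 5 genes for the turnover of the MCL1 protein found in the file, 1 passed. Huwe1, a ubiquitin ligase of MCL1, had 22.8 ± 0.416 FPKM in OGE, 14.8 ± 2.52 FPKM in OGP and 18.4 ± 2.43 FPKM in control libraries (SD, n = 3 each). It rose in OGE against OGP by 0.62 on the log2 scale (limma adjusted p = 0.00918), but not past the fold without OGP replicate 3 (0.53). None passed in OGP against control, where 3 had an unadjusted p under 0.05 and limma-voom called 1 (Fbxw7, lower), or in OGE against control, where 1 had an unadjusted p under 0.05 and limma-voom called 0. The medians were -0.24, 0.40 and 0.23 in OGP against control, OGE against OGP and OGE against control.

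Of 7 tested transcription factors known to control BH3-only genes, 2 rose and 1 fell in OGP against control, 1 fell in OGE against OGP and 2 fell in OGE against control. Of all genes tested, 6.38% rose and 5.74% fell in OGP against control, 4.73% fell in OGE against OGP and 6.33% in OGE against control. Atf4 and Ddit3, factors of the integrated stress response, rose in OGP against control by 0.79 (limma adjusted p = 0.00106) and 0.60 (limma adjusted p = 0.00181) on the log2 scale. Atf4 had 233 ± 16.8 FPKM in OGE, 316 ± 8.38 FPKM in OGP and 184 ± 25.6 FPKM in control libraries (SD, n = 3 each). Ddit3 had 24.7 ± 2.45 FPKM in OGE, 28.7 ± 1.99 FPKM in OGP and 18.8 ± 1.205 FPKM in control libraries (SD, n = 3 each), and did not pass without control replicate 1 (0.56) or OGP replicate 3 (0.54). Another entry named Ddit3 is listed at 0 in all 9 libraries.

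Foxo1, a factor known to induce Bcl2l11, had 2.12 ± 0.444 FPKM in OGE, 1.88 ± 0.0778 FPKM in OGP and 3.92 ± 0.6596 FPKM in control libraries (SD, n = 3 each). It fell in OGP against control (-0.88, limma adjusted p = 0.00234) and in OGE against control (-0.76, limma adjusted p = 0.00535). Jun, part of AP-1, had 13.4 ± 0.186 FPKM in OGE, 39.8 ± 3.72 FPKM in OGP and 49.7 ± 12.1 FPKM in control libraries (SD, n = 3 each). It fell in OGE against OGP (-1.53, limma adjusted p = 0.000176) and in OGE against control (-1.82, limma adjusted p = 4.7e-05). No gene of the list passed as higher in OGE against OGP or OGE against control in limma. At an unadjusted p under 0.05 were 4 and 5, in either direction. Foxo3 had 13.9 ± 0.234 FPKM in OGE, 9.735 ± 0.807 FPKM in OGP and 9.41 ± 0.693 FPKM in control libraries (SD, n = 3 each). Its log2 fold change was 0.05 in OGP against control (limma adjusted p = 0.707). In OGE it was 0.49 against OGP (limma adjusted p = 0.00368) and 0.54 against control (limma adjusted p = 0.00167), with folds short of 1.5. In OGE against control limma-voom called Foxo3 higher. Trp53, which is known to induce Bbc3, had 75.2 ± 1.29 FPKM in OGE, 70.4 ± 3.09 FPKM in OGP and 68.2 ± 4.08 FPKM in control libraries (SD, n = 3 each) and did not pass. The list's medians were 0.05, -0.08 and 0.14 in OGP against control, OGE against OGP and OGE against control.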

How the data were processed

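RNA-seq of 9 HT22 libraries (3 OGE, 3 OGP and 3 control) was analysed, and groups were taken from the sample labels. Once poor reads had been removed, the authors mapped reads to mm10 with HISAT2 2.0.5, assigned them to genes with featureCounts and deposited FPKM. The tool that made the FPKM and the annotation release are not given in the sources used here. Multiplied by gene length, 100.0% of the low nonzero FPKM values were whole multiples of the value of 1 read, within 0.1 reads. Higher values were not checked in this way. The number of reads in genes (read pairs, if fragments had been counted) was taken on the same scale for all values.

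The 10 genes, the other gene lists and the markers were chosen with earlier results of these data known. The test was limma (version 3.58.1, R 4.3.3) with a prior variance that follows a trend, applied to log2(FPKM + 0.5) of the 13245 of 54532 genes that averaged 0.5 FPKM or more, with all groups in 1 model. Fold changes on that scale understate the change of low genes. Benjamini-Hochberg adjustment covered all of these genes. The limits for passing, an adjusted p no higher than 0.05 and a 1.5-fold difference or more, follow the study's methods. The text names all 10 genes, the genes of each list that passed in any comparison (or, if none did, the 2 with the smallest p), and the 2 genes most correlated with each gene that passed. Foxo3, Fbxw7, Trp53 and, for its overlap with Bid, Bcl2l13 were named after their values had been seen. Another gene that this rule takes is not reported here.

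Alternatives were other pseudocounts, filters and scalings, a robust variance, 6 libraries at a time, protein-coding genes only, a replicate block, voom on the recovered reads and leaving out each library. The removal of control replicate 1 together with OGE replicate 3 was chosen after seeing the data. Promoter windows came from a RefSeq table of GRCm38.p6, in which 9 of the 10 genes were matched. No library pair of a group agreed within sampling noise.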

Additional observations from a re-analysis of the deposited data

How the results depend on the processing

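Over the 21 alternatives, 537 values of the 9 tested genes kept their direction and their side of the threshold, 12 lost a call, 6 gained one and 12 changed sign. With no fold limit, 4, 2 and 2 of the BCL2 family genes passed in OGP against control, OGE against OGP and OGE against control. With a pseudocount of 1, 0 passed in OGE against OGP and 0 in OGE against control, and 0 passed in OGE against control without a filter and with median-of-ratios factors. With quantile normalization and limma-voom, the gene that passed in OGE against control was Bid (0.59 and 0.61) and not Bak1. Leaving out 1 library gave 2 to 3, 0 to 1 and 0 to 1 genes. Without control replicate 1 and OGE replicate 3 together, chosen after seeing the data, 3 genes passed in OGP against control and 2 (Bak1 and Bbc3, lower) in OGE against control. The replicate block left the counts at 2, 1 and 1. Deviations of same-numbered libraries from their group means had correlations of -0.177 to 0.319 over genes, against -0.346 to 0.264 for other numbers. With 3 libraries per group the deviations constrain each other, so these values cannot tell whether the numbers pair the libraries.

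None of the differences that changed sign had passed the test. With quantile normalization, Bax was at 0.026 and Vdac1 at 0.11 in OGE against OGP, Bcl2 at 0.0326 in OGP against control and Birc3 at -0.0066 in OGE against control. Without control replicate 1 and OGE replicate 3 together, Bax was at -0.0507 in OGE against control, and Bbc3 at -0.11 and Bcl2l1 at -0.0565 in OGP against control. With single libraries left out, Bax spanned -0.14 to 0.0472 and Mcl1 -0.0186 to 0.0841 in OGE against OGP. In OGP against control, Bbc3 then spanned -0.11 to 0.33 and Bcl2l1 -0.0565 to 0.16, both lowest without control replicate 1, and Bcl2 spanned -0.17 to 0.0865. Birc3 spanned -0.0409 to 0.21 in OGE against control. The cause was not tested. Bbc3 had the fewest reads of the 9 tested genes, 92 to 210 per library.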
